A study of Homo sapiens with 16 samples.

Results

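The genes described here encode 10 proteins of the neuronal cytoskeleton. They were chosen with earlier results of these data known and taken by name from the 26410 genes of the deposited tables. Each of the 10 matched a single Ensembl identifier. The set holds the neuronal tubulin TUBB3, the stathmins STMN1, STMN2 and STMN4, the microtubule-associated proteins MAP2, MAP1B and DCX, the neurofilament chains NEFL and NEFM, and the growth cone protein GAP43. RNA was measured in SH-SY5Y, an established human neuroblastoma cell line of sympathetic origin. A pair of clones was labelled TRPM2 KO (KO11 and KO28), in which CRISPR editing was directed at TRPM2, a calcium-permeable ion channel, with a donor that carried GFP and puromycin resistance. A pair of clones that received a scrambled guide (Scr13 and Scr16) served as controls. Each clone was sequenced with 2 biological replicates without treatment and 2 after 24 h of doxorubicin, a chemotherapy drug that damages DNA, which gives 16 poly(A) RNA libraries in 4 groups of 4. The sample labels and the study's methods give a dose of 0.3 µM, and the text deposited for the series gives 3 µM. Each genotype is 2 single-cell clones, so a difference between genotypes and a difference between clones of any origin cannot be told apart. Values are normalized CPM, the reads of a gene scaled to the reads on all genes of its library, and the libraries held between 10481177 and 25086085 reads on genes.

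Microtubules are polymers of alpha- and beta-tubulin that carry transport along neurites. MAP2, MAP1B and doublecortin (DCX) bind and stabilize them, and stathmins bind free tubulin and favour their disassembly. Neurofilaments are intermediate filaments built from light, medium and heavy chains that fill the axon, and GAP43 is a membrane phosphoprotein of growing neurites. Neuroblastoma cells resemble immature sympathetic neurons and express many of these genes, several of which are used as markers of neuronal differentiation.

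TRPM2, the targeted gene, was not lower in the libraries labelled TRPM2 KO. Its untreated level was 1.93 and 2.23 normalized CPM in KO11, 1.41 and 2.19 in KO28 and 0.118 and 0.115 in Scr13, while Scr16 had 0 reads in either replicate. After doxorubicin it had 1.22 and 1.83 in KO11, 1.37 and 0.658 in KO28, 0.0594 and 0.0631 in Scr13 and 1.33 and 0.390 in Scr16. Every untreated library labelled TRPM2 KO was thus above every untreated Scr library, and after doxorubicin the groups overlapped. By the study's methods, the edit removed the start of the coding sequence and put the rest out of frame. Reads were counted per gene and could still come from the rest of the transcript, so the TRPM2 level does not check the labels. Why TRPM2 was near 0 in the untreated Scr libraries, below those labelled TRPM2 KO, was not tested. Directions below are those of the libraries labelled TRPM2 KO relative to the libraries labelled Scr. The labelled cell type was also checked: 10 markers of sympathoadrenal neuroblastoma summed to between 4691 and 5807 normalized CPM in the 16 libraries, led by DBH and HAND2, while TH was at or near 0 (at most 1.13 normalized CPM). The untreated library Scr13 replicate 1 stood apart from the other Scr libraries in fibroblast markers, as given with the markers below, and the calls of the 10 genes, and of the other gene lists without treatment and with doxorubicin in Scr, were repeated without it.

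Promoter sequences are shown for DCX and GAP43, which differed between the genotypes in opposite directions, and for STMN1, which fell with doxorubicin in both genotypes. RefSeq (GRCh38.p14) promoters were at hand for 6 of the 10 genes, and each sequence holds the 250 bases before the first listed start, 5′ to 3′ on the gene's strand. Capitals mark 3 motifs searched on both strands: the E-box CANNTG, read by basic helix-loop-helix factors, the E2F-type motif TTGGCGC and the TATA motif TATAAA.
DCX, chrX:111412193-111412442 on the - strand: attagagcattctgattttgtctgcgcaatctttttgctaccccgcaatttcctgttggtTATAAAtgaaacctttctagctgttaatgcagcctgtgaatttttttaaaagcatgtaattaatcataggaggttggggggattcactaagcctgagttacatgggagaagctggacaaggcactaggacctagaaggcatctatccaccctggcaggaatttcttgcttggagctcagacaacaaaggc
GAP43, chr3:115623260-115623509 on the + strand: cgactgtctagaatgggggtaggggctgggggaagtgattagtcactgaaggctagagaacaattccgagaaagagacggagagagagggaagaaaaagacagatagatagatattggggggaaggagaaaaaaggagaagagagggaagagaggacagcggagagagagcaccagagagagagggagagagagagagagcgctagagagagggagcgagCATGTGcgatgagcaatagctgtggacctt
STMN1, chr1:25906420-25906669 on the - strand: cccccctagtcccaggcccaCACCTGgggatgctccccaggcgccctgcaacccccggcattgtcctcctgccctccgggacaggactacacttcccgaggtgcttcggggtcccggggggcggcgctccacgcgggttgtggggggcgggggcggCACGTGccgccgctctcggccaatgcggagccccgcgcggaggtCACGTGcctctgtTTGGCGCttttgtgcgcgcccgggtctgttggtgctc
The DCX window holds 1 TATA motif and no E-box, the GAP43 window 1 E-box, and the STMN1 window 3 E-boxes and 1 E2F-type motif. GC content was 42.8% for DCX, 51.6% for GAP43 and 73.2% for STMN1. Of 27305 RefSeq promoter windows of the same length, 62.2% hold an E-box, 2.63% the E2F-type motif and 11.1% the TATA motif. A match is a description of the sequence and not a binding site. By the GENCODE positions given below, the STMN1 window lies within STMN1, and most of the DCX and GAP43 windows lie within their genes. The MAP2 and TUBB3 windows hold none of these motifs, and that of MAP1B holds 1 TATA motif.

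The members lie on 7 chromosomes of GRCh38 (GENCODE 29). Of the microtubule genes, TUBB3 (ENSG00000258947) lies at chr16:89921392-89938761, MAP2 (ENSG00000078018) at chr2:209424058-209734118 and MAP1B (ENSG00000131711) at chr5:72107234-72209570, all on the + strand, and DCX (ENSG00000077279) lies at chrX:111293779-111412429 on the - strand. STMN1 (ENSG00000117632) lies at chr1:25884181-25906991 on the - strand, and GAP43 (ENSG00000172020) at chr3:115623324-115721490 on the + strand. Chromosome 8 holds 4 of the 10: STMN2 (ENSG00000104435, chr8:79610814-79666175, + strand), STMN4 (ENSG00000015592, chr8:27235323-27258420, - strand), NEFM (ENSG00000104722, chr8:24913012-24919098, + strand) and NEFL (ENSG00000277586, chr8:24950955-24957110, - strand). NEFM and NEFL are separated by 31856 bases. Exons of other genes overlap 4 of the members. For TUBB3, 66.5% of the coding bases and 35.8% of all exon bases also belong to a readthrough gene on the same strand, ENSG00000198211, which was not analysed here. How reads on shared exons were assigned is not given in the sources used here, so the level of TUBB3 and its changes are uncertain. An antisense gene, AF106564.1 (ENSG00000272163), shares 38.9% of NEFM's exon bases, and another, AC107373.2 (ENSG00000272157), shares 11.3% of NEFL's. AF106564.1 had between 7.20% and 24.4% as many reads as NEFM in a library, and AC107373.2 had at most 1.11% as many as NEFL. How reads on these shared bases were assigned is not given either, so the levels of NEFM and NEFL are also uncertain. STMN1 shares 1.05% of its exon bases with a microRNA gene. Pseudogenes named after them are annotated for TUBB3 and STMN1 (2 each) and for NEFL and NEFM (1 each), and reads could be split with these copies.

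All 10 genes had reads in all 16 libraries, with TUBB3 lowest at 16 to 84 reads and STMN2 highest at 18902 to 37444 reads. To compare levels between genes, normalized CPM was divided by the length of the merged exons. In the untreated Scr libraries, STMN2, a stathmin of neurite growth, led with a mean of 627 normalized CPM per kb. STMN1 (112) and MAP1B (106 per kb) came next, and their ranges over the 4 libraries overlapped. GAP43 (69.7) and NEFL (60.5 per kb) overlapped likewise, as did MAP2 (35.5) and NEFM (31.6 per kb). STMN4 (21.9), DCX (10.8) and TUBB3 (0.806 per kb) followed, each below the range of the one before. Class I beta-tubulin, TUBB, was listed at or near 0 in every group (highest library 0.130 normalized CPM), although dividing cells are known to use it, so low tubulin values in these tables need not mean low expression.

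**Figure D1:**
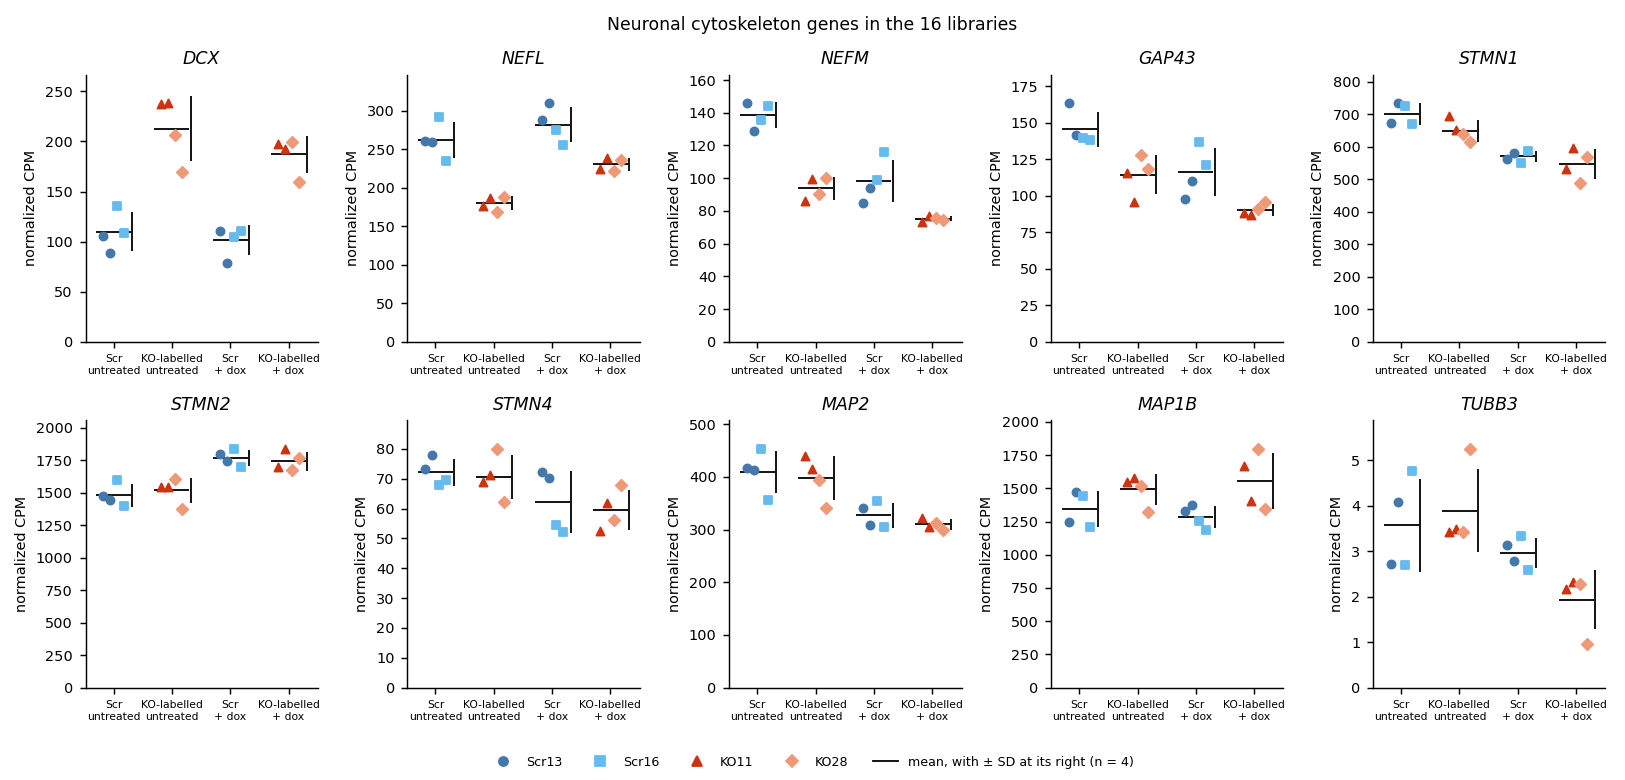
Normalized CPM (y axis, linear, from 0) of the 10 genes in the 16 libraries, by group (x axis), with clones as symbols, the group mean as a horizontal line and ± SD at its right (n = 4). The libraries labelled KO lie above the Scr libraries for DCX and below them for NEFL, NEFM and GAP43 in both treatments.

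The comparison of TRPM2 KO with Scr within a treatment asks how RNA levels differ between the edited and the control clones, before and during chemotherapy. In both treatments, the libraries labelled TRPM2 KO had more DCX RNA and less NEFL, NEFM and GAP43 RNA, and the other 6 genes did not pass the threshold. Genes were called with limma on log2(normalized CPM + 1) at an adjusted p under 0.05 (Benjamini-Hochberg over all genes tested). Without treatment 1 of the 10 members was called higher and 3 lower, while 4.84% of all genes tested were called, 2.30% higher and 2.54% lower. After doxorubicin the counts were again 1 higher and 3 lower, while 8.69% of all genes were called, 4.52% higher and 4.17% lower. The same 4 genes were called in both treatments, each in the same direction. Since the members were chosen with earlier results known, the shares over all genes give scale and do not test the set. The median log2 fold change of the 10 members was -0.041 without treatment and -0.070 after doxorubicin, and that of all genes tested was -0.0073 and 0.014. Since these are bulk libraries, fewer cells that express a gene and less RNA per cell cannot be told apart.

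DCX encodes doublecortin, which binds microtubules in migrating and immature neurons. Without treatment, DCX had 237 and 238 in KO11, 207 and 169 in KO28, 105 and 89.0 in Scr13 and 136 and 109 in Scr16 (normalized CPM, 2 replicates per clone). The lowest library labelled TRPM2 KO was thus above the highest Scr library, and KO28 replicate 2 and Scr16 replicate 1 came closest to each other. The means were 213 ± 32.6 and 109.8 ± 19.5 normalized CPM (SD, n = 4). The log2 fold change was 0.95 (SE 0.11, adjusted p = 1.27e-05), a 1.93-fold difference. After doxorubicin, DCX had 197 and 192 in KO11, 199 and 159 in KO28, 111 and 79.1 in Scr13 and 105 and 111 in Scr16. The groups again did not overlap, and the log2 fold change was 0.89 (SE 0.10, adjusted p = 3.05e-06), or 1.85-fold. The 2-sided exact permutation test of 4 libraries against 4 gave p = 0.0286 in each treatment, the smallest it can give. That test takes the replicates of a clone as independent, and an exchange of whole clones, 2 against 2, cannot go below an exact p of 0.333. DCX passed the threshold under all 22 alternative analyses of each treatment, including reads summed per clone.

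NEFL and NEFM encode the light and medium neurofilament chains. NEFL had 177 and 186 in KO11, 169 and 188 in KO28, 261 and 259.6 in Scr13 and 292 and 235 in Scr16 without treatment (normalized CPM). All 4 libraries labelled TRPM2 KO lay at or below 188 and all 4 Scr libraries at or above 235 normalized CPM. The log2 fold change of NEFL was -0.54 (SE 0.073, adjusted p = 6.44e-05). After doxorubicin, NEFL had 225 and 239 in KO11, 222 and 237 in KO28, 288 and 310.0 in Scr13 and 275 and 255 in Scr16, again without overlap. The gap between the groups was then between 239 and 255 normalized CPM, and the log2 fold change was -0.29 (SE 0.074, adjusted p = 0.0148). NEFM had 85.7 and 99.4 in KO11, 90.5 and 99.9 in KO28, 146 and 129 in Scr13 and 135 and 144 in Scr16 without treatment. Its groups did not overlap either, and the log2 fold change was -0.56 (SE 0.077, adjusted p = 7.63e-05). After doxorubicin, NEFM had 73.5 and 76.9 in KO11, 75.7 and 74.4 in KO28, 84.7 and 94.1 in Scr13 and 98.7 and 116 in Scr16. The 4 libraries labelled TRPM2 KO were close to each other, the Scr libraries spread more widely, and the log2 fold change was -0.38 (SE 0.091, adjusted p = 0.00967). The exact permutation p was 0.0286 for each of these 4 comparisons. After doxorubicin, the NEFL call was lost without KO11 replicate 1 (adjusted p = 0.0587) or Scr13 replicate 2 (adjusted p = 0.0606), and the NEFM call without Scr16 replicate 2 (adjusted p = 0.0521), all from limma. With reads summed per clone, both genes passed in both treatments by edgeR. With a whole clone left out, the NEFL call after doxorubicin was lost without KO11 (adjusted p = 0.126), Scr13 (0.162) or KO28 (0.14), and the NEFM call without KO11 (0.11), Scr16 (0.131) or KO28 (0.103), all from limma.

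GAP43, a substrate of protein kinase C at the growth cone, was lower in the libraries labelled TRPM2 KO. It had 116 and 95.9 in KO11, 128 and 118 in KO28, 163 and 141 in Scr13 and 139 and 138 in Scr16 without treatment (normalized CPM), where Scr13 replicate 1 stood above the other 3 Scr libraries. After doxorubicin it had 88.4 and 86.4 in KO11, 90.7 and 96.0 in KO28, 98.0 and 110.1 in Scr13 and 136 and 121 in Scr16. The groups did not overlap in either treatment, but after doxorubicin KO28 replicate 2 and Scr13 replicate 1 were close. The log2 fold change was -0.35 (SE 0.088, adjusted p = 0.0205) without treatment and -0.35 (SE 0.092, adjusted p = 0.0168) after doxorubicin, with an exact permutation p of 0.0286 in each. This call was the least stable of the 4. It was lost without KO11 replicate 2 (adjusted p = 0.0924) or Scr13 replicate 1 (adjusted p = 0.105) without treatment, and without KO11 replicate 1 (0.0580), KO11 replicate 2 (0.0548), Scr16 replicate 1 (0.0536) or Scr16 replicate 2 (0.0570) after doxorubicin. With reads summed per clone, edgeR gave an adjusted p of 0.0967 and 0.0533. With a whole clone left out, limma's call was lost without KO11 (adjusted p = 0.133), Scr13 (0.327) or Scr16 (0.0808) without treatment, and without KO11 (0.237), Scr16 (0.238) or KO28 (0.0766) after doxorubicin.

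**Figure D2:**
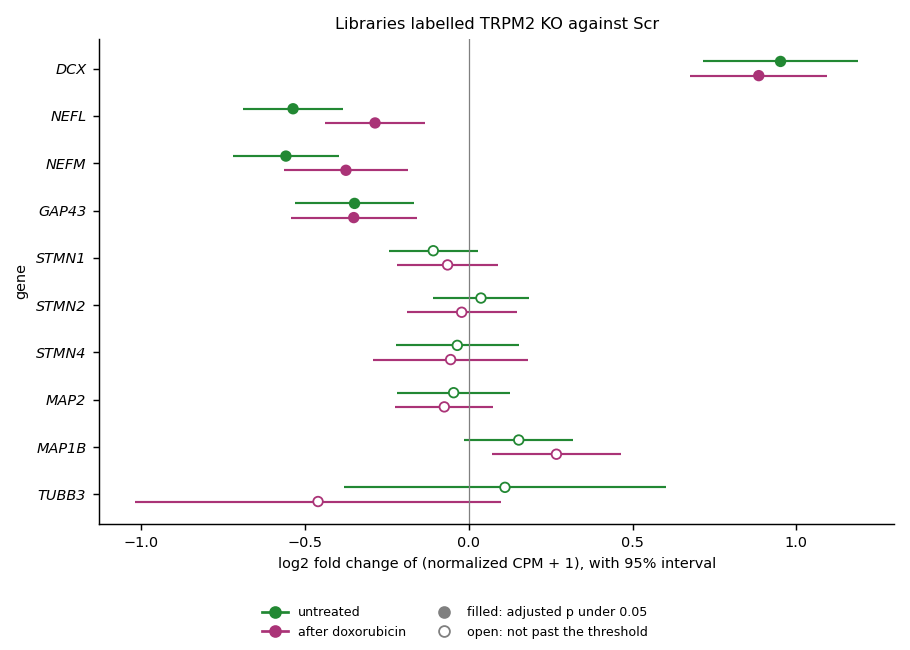
Log2 fold change of (normalized CPM + 1) between libraries labelled TRPM2 KO and Scr (x axis) for the 10 genes (y axis), without treatment and after doxorubicin, with 95% intervals from limma. Filled points passed the threshold: DCX at 0.95 and 0.89, and NEFL, NEFM and GAP43 between -0.56 and -0.29.

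The remaining microtubule genes did not pass the threshold between the genotypes. MAP1B, which binds microtubules and actin in growing axons, came closest. It had 1670 and 1408 in KO11, 1797 and 1348 in KO28, 1328 and 1373 in Scr13 and 1253 and 1187 in Scr16 after doxorubicin, where KO28 replicate 2 lay within the Scr range. Its log2 fold change was 0.27 (SE 0.095, adjusted p = 0.0907) after doxorubicin and 0.15 (SE 0.08, adjusted p = 0.413) without treatment, and the exact permutation p after doxorubicin was 0.0571. It passed after doxorubicin without KO28 replicate 2 (adjusted p = 0.0469), with reads summed per clone (adjusted p = 0.0339, edgeR) and in DESeq2 (adjusted p = 0.0219). For STMN1, the stathmin of dividing and immature cells, the 95% interval of the log2 fold change was -0.24 to 0.027 without treatment and -0.22 to 0.09 after doxorubicin. For STMN2 it was -0.11 to 0.18 and -0.19 to 0.15, for STMN4 -0.22 to 0.15 and -0.29 to 0.18, and for MAP2, the dendritic microtubule-associated protein, -0.22 to 0.13 and -0.22 to 0.074. These intervals include no 2-fold change in either direction. TUBB3 had the widest, -0.38 to 0.60 and -1.02 to 0.10. After doxorubicin its 4 libraries labelled TRPM2 KO (2.18 and 2.33 in KO11, 2.29 and 0.957 in KO28) lay below the Scr libraries (3.15 and 2.78 in Scr13, 3.33 and 2.60 in Scr16) without passing limma's threshold (adjusted p = 0.363). The groups of 4 thus did not overlap for 4 of the 10 members without treatment and 5 after doxorubicin, while this held for 9.29% and 13.2% of all genes tested. These shares do not test the set either.

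Clones of the same genotype were compared in the same way, with the treatment as a term. Between KO28 and KO11, 0 of the 10 members passed limma's threshold, 1 had an unadjusted p under 0.05, and 0 passed with edgeR or DESeq2 on recovered reads. Of all genes tested, 0.138% were called and 10.1% had an unadjusted p under 0.05. Between Scr16 and Scr13, 0 of the 10 passed limma's threshold, 2 had an unadjusted p under 0.05, and 0 passed with edgeR or DESeq2, while 0.0348% of all genes were called and 7.02% had an unadjusted p under 0.05. DCX had an unadjusted p under 0.05 in both clone comparisons, with a log2 fold change of -0.24 (SE 0.082, adjusted p = 0.322) for KO28 against KO11 and 0.27 (SE 0.10, adjusted p = 0.686) for Scr16 against Scr13 from limma. Without KO28 doxorubicin replicate 1, DCX passed between KO28 and KO11 (adjusted p = 0.0474, limma). STMN4, the remaining one, had a log2 fold change of -0.27 for Scr16 against Scr13 (adjusted p = 0.583, limma).

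Genes within 1 Mb of each member were then compared between the genotypes, and those named here were chosen after their values were seen. Around DCX, 7 neighbours passed the filter on low values. CAPN6 and SERTM2, the nearest of these on either side of DCX, passed it through the libraries labelled TRPM2 KO alone, so their values are given as a description with no test. Of the other 5, 0 were called without treatment by limma and 1 was higher after doxorubicin. CAPN6, a calpain-like microtubule-binding protein at chrX:111245103-111270523, had 4.85 and 4.04 normalized CPM in KO11 and 4.56 and 2.33 in KO28 without treatment, and 0 reads in all 4 Scr libraries. Against a floor of 3 reads per library (the limit that a count of 0 allows, for counting error only), CAPN6 was at least 21.4-fold higher in the libraries labelled TRPM2 KO. In treated libraries, CAPN6 had 13.6 and 10.6 in KO11, 6.28 and 4.72 in KO28, 0 reads in both replicates of Scr13 and in Scr16 replicate 1, and 4 reads (0.260 normalized CPM) in Scr16 replicate 2. SERTM2, at chrX:111511662-111522399, had 9.26 and 8.91 in KO11, 7.24 and 4.60 in KO28, 0.315 and 0 in Scr13 and 0.184 and 0.170 in Scr16 without treatment and 8.57 and 8.50 in KO11, 5.82 and 5.20 in KO28, 0.0594 and 0.126 in Scr13 and 0 and 0.325 in Scr16 after doxorubicin (normalized CPM). Since SERTM2 passed the filter through the libraries labelled TRPM2 KO alone, the lack of overlap between its groups follows from that selection. PAK3, a kinase gene farther out at chrX:110944285-111227361, had a log2 fold change of 0.29 (SE 0.12, adjusted p = 0.237) without treatment and 0.40 (SE 0.11, adjusted p = 0.019) after doxorubicin. The other neighbours, AMMECR1, CHRDL1, EIF4BP7 and ALG13, passed in neither treatment. Around NEFL, the called neighbours were NEFM in both treatments and CDCA2, a chromatin and cell cycle gene, after doxorubicin (log2 fold change -0.46, adjusted p = 0.0150), of 6 and 7 tested. Around GAP43, the neuronal adhesion gene LSAMP was lower after doxorubicin (log2 fold change -0.33, adjusted p = 0.0167), of 3 tested. Around each of TUBB3, STMN1, STMN2, STMN4, MAP2 and MAP1B, at most 1 of 6 to 32 tested neighbours was called without treatment, and at most 1 after doxorubicin except around STMN4, where 3 of 14 were lower.

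**Figure D3:**
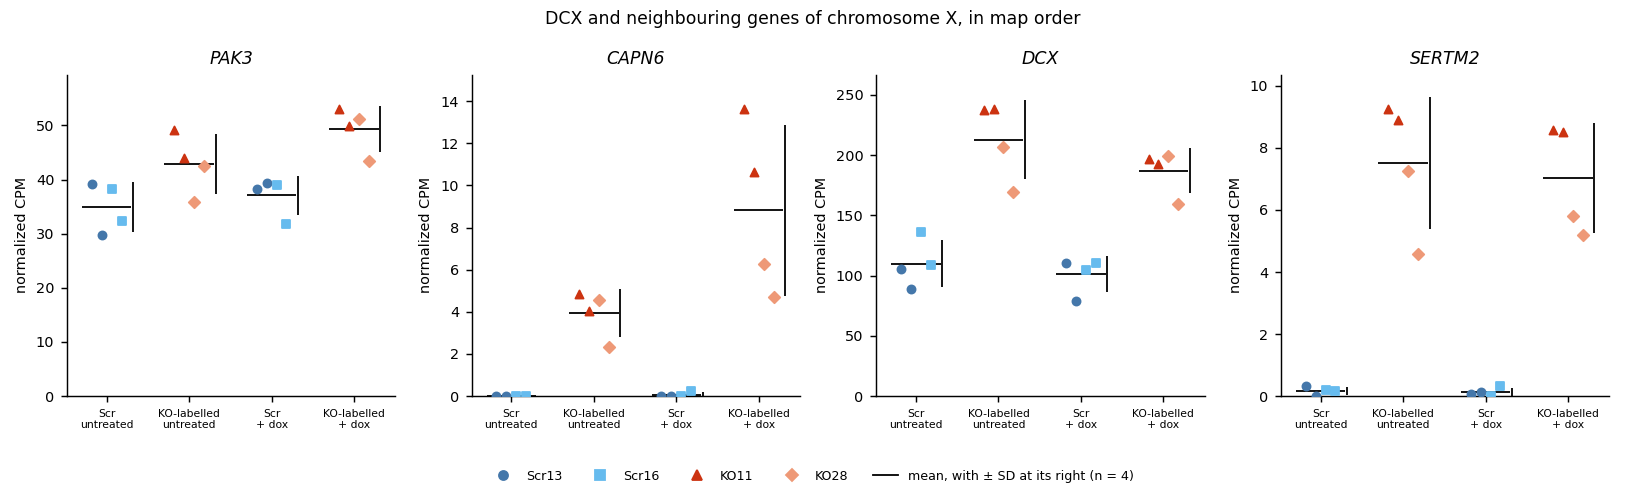
Normalized CPM (y axes, linear, from 0) of PAK3, CAPN6, DCX and SERTM2 in the 16 libraries by group, with clones as symbols, the mean as a line and ± SD at its right (n = 4). CAPN6 and SERTM2 lie at or near 0 in the Scr libraries and between 2.33 and 13.6 normalized CPM in the libraries labelled KO.

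Other genes of the cytoskeleton, from lists of 84 genes, were compared in the same fits. The first list holds 5 intermediate filaments, of which 4 were tested in full and PRPH passed the filter through the Scr libraries. Of the 4, 2 were lower and 1 was higher in the libraries labelled TRPM2 KO in both treatments. NEFH, the heavy neurofilament chain, had 25.7 ± 2.70 against 58.2 ± 2.32 normalized CPM in Scr without treatment (SD, n = 4), and its log2 fold change was -1.15 (adjusted p = 4.15e-07) without treatment and -0.84 (adjusted p = 1.16e-05) after doxorubicin. PRPH, or peripherin, the filament of peripheral neurons, had 0.544 ± 0.457 against 6.64 ± 3.26 in Scr without treatment and 0.558 ± 0.421 against 7.65 ± 1.43 in Scr after doxorubicin, given as a description with no test. VIM, or vimentin, the filament of mesenchymal cells, went the other way, with 369 ± 44.9 against 188 ± 92.8 in Scr and log2 fold changes of 1.10 (adjusted p = 0.00406) and 1.23 (adjusted p = 3.96e-05). VIM was also called without Scr13 replicate 1 (log2 fold change 1.38, adjusted p = 2.42e-05). To complete the list, NES, or nestin, the filament of neural progenitors, was lower (log2 fold change -0.34, adjusted p = 0.00141 and -0.34, adjusted p = 0.00479), and INA, or alpha-internexin, did not pass (log2 fold change 0.13, adjusted p = 0.344 and 0.12, adjusted p = 0.402). All adjusted p-values here are from limma.

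In the other lists, bracketed values are log2 fold changes with limma's adjusted p. Among 11 tested microtubule-associated proteins outside the members, 1 was higher and 2 lower without treatment, and 2 were higher and 2 lower after doxorubicin. DCLK1, a kinase with a doublecortin domain, had 63.0 ± 10.3 against 32.4 ± 3.88 normalized CPM in Scr after doxorubicin, with a log2 fold change of 0.93, adjusted p = 2.10e-05, and 0.59, adjusted p = 0.00454 without treatment. MAP9, a spindle-associated protein, was lower (-0.71, adjusted p = 2.36e-05 and, after doxorubicin, -0.44, adjusted p = 0.00178), and TPPP, a tubulin polymerization promoter, was lower after doxorubicin (-0.60, adjusted p = 0.00792) and not called without treatment (-0.12, adjusted p = 0.76). The other calls in this list were MAP6, a microtubule stabilizer, lower without treatment (-0.32, adjusted p = 0.0372) though not when Scr13 replicate 1 was left out (adjusted p = 0.0758), and MAP1A, which binds microtubules in mature neurons, higher after doxorubicin (0.33, adjusted p = 0.0104). Of 10 tested tubulins, TUBB6 was higher in both treatments (0.49, adjusted p = 0.035 and 0.52, adjusted p = 0.00939), and TUBB2B, a beta-tubulin of developing neurons, was lower after doxorubicin (-0.54, adjusted p = 0.000164) and not called without treatment (-0.076, adjusted p = 0.773). Of 12 growth cone and neurite proteins, DPYSL3, a collapsin response mediator, was higher in both treatments (1.23, adjusted p = 0.000542 and 0.96, adjusted p = 0.000298). BASP1, a membrane protein often described beside GAP43, was higher after doxorubicin (0.50, adjusted p = 0.0489) and not called without treatment (0.65, adjusted p = 0.0599). No gene of that list was lower, whereas GAP43 was. KIF21A, a kinesin that limits microtubule growth, was the 1 axonal motor of 10 that was called, and it was lower in both treatments (-0.67, adjusted p = 2.00e-06 and -0.58, adjusted p = 9.06e-06). SPTBN1, 1 of 5 spectrins and ankyrins, was lower without treatment (-0.25, adjusted p = 0.0149). Of 14 other microtubule regulators, MAPRE2 (-0.44, adjusted p = 0.0451) and CAMSAP3 (-0.41, adjusted p = 0.00781) were lower after doxorubicin. ELAVL4, a neuronal RNA-binding protein, was higher after doxorubicin (0.41, adjusted p = 0.000555), 1 of 5 genes in its list, and 0 of the 9 kinases of cytoskeletal proteins was called in either treatment by limma, with 0 at an unadjusted p under 0.05.

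Markers of other cell states moved with the genotype beside the members. The 7 genes of a fibroblast list summed to between 249 and 349 normalized CPM in the untreated libraries labelled TRPM2 KO, with COL3A1 most abundant. In the untreated Scr libraries the sums were 85.6 in Scr13 replicate 2, 121 and 139 in Scr16, and 253 in Scr13 replicate 1, the untreated Scr library with the highest GAP43. After doxorubicin they lay between 255 and 357 in the libraries labelled TRPM2 KO and between 85.9 and 169.6 in Scr. DCN in both treatments and LUM after doxorubicin passed the filter through the libraries labelled TRPM2 KO. Of the other tested genes of this list, 4 of 6 were higher and 0 lower without treatment, and 2 of 4 were higher and 0 lower after doxorubicin. Scr13 replicate 1 had 139 normalized CPM of COL3A1, its most abundant gene of the list, whereas PDGFRB was most abundant in the other untreated Scr libraries, at 65.5 to 81.7. Without that library, 4 of the 6 genes were again higher without treatment. They include LUM, which after doxorubicin passed the filter through the libraries labelled TRPM2 KO. Of 8 tested mesenchymal neuroblastoma markers, VIM among them, 3 were higher and 1 lower without treatment, and 5 were higher and 1 lower after doxorubicin. Of the sympathoadrenal list, 2 of 9 tested genes were higher and 1 lower without treatment. After doxorubicin CHGA passed the filter through 1 genotype, and of the other 8 tested genes 1 was higher and 1 lower. Without Scr13 replicate 1, 1 of the 2 sympathoadrenal genes higher without treatment, GATA3, was no longer called (adjusted p = 0.16, limma). Of the leukocyte list, CD14 was the 1 gene at hand, at most 1.67 normalized CPM. The part of these states in the differences of DCX, NEFL, NEFM and GAP43 was not tested.

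The comparison of treated with untreated libraries within a genotype asks how these genes respond to doxorubicin, and it was fitted with the clone as a term. STMN1, MAP2, NEFM and GAP43 fell with doxorubicin in both genotypes. STMN2 rose in Scr, and NEFL rose and TUBB3 fell in the libraries labelled TRPM2 KO. In Scr, 1 of the 10 members was called higher and 4 lower, while 12.3% of all genes tested were called, 7.10% higher and 5.24% lower. In the libraries labelled TRPM2 KO, 1 was higher and 5 lower, while 19.6% of all genes were called, 11.3% higher and 8.35% lower. As between the genotypes, these shares do not test the set. The median log2 fold change of the members was -0.20 in Scr and -0.25 in the libraries labelled TRPM2 KO, and that of all genes was -0.012 and 0.015.

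STMN1 had 673 and 735 in Scr13 and 725 and 669 in Scr16 without treatment and 562 and 582 in Scr13 and 551 and 588 in Scr16 after doxorubicin (normalized CPM). It had 695 and 651 in KO11 and 639 and 615 in KO28 without treatment and 533 and 597 in KO11 and 489.5 and 568 in KO28 after doxorubicin. Every treated library lay below every untreated library of its genotype. The share of all genes with such a lack of overlap was not counted for doxorubicin, here or for MAP2 below. The log2 fold change was -0.29 (SE 0.063, adjusted p = 0.00425) in Scr and -0.25 (SE 0.072, adjusted p = 0.0142) in the libraries labelled TRPM2 KO. MAP2 had 416 and 414 in Scr13 and 453 and 356 in Scr16 without treatment, and 341 and 309 in Scr13 and 354 and 304 in Scr16 after doxorubicin. Libraries labelled TRPM2 KO had 439 and 415 in KO11 and 394 and 341 in KO28, and 323 and 305 in KO11 and 313 and 299 in KO28 after doxorubicin. The highest treated Scr library was slightly under the lowest untreated one, and the treated libraries labelled TRPM2 KO were all lower than the untreated ones. The log2 fold change was -0.32 (SE 0.077, adjusted p = 0.0093) in Scr and -0.35 (SE 0.072, adjusted p = 0.000788) in the libraries labelled TRPM2 KO. The call in Scr was lost with no filter on low values (adjusted p = 0.0894) and in Scr16 alone (0.267), and that in the libraries labelled TRPM2 KO was lost in KO28 alone (0.164), all from limma. GAP43, whose values in every library are given above, fell by 0.33 on the log2 scale in both genotypes (adjusted p = 0.0235 in Scr and 0.0045 in the libraries labelled TRPM2 KO). With the clones taken alone, its log2 fold change was -0.54 in Scr13 (adjusted p = 0.0149), -0.11 in Scr16 (adjusted p = 0.735) and -0.27 in KO11 (adjusted p = 0.0883), and it was also called in KO28, all from limma. STMN1 was not called in any clone alone, with a log2 fold change of -0.30 in Scr13 (adjusted p = 0.104), -0.29 in Scr16 (0.163), -0.25 in KO11 (0.0723) and -0.25 in KO28 (0.212). The STMN1 call in the libraries labelled TRPM2 KO was lost without KO11 untreated replicate 1 (adjusted p = 0.0635), and the GAP43 call in Scr without Scr13 untreated replicate 1 (0.103), Scr13 untreated replicate 2 (0.0614), Scr13 doxorubicin replicate 1 (0.108) or Scr13 doxorubicin replicate 2 (0.0622), all from limma.

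STMN2 was the stathmin that went up. In Scr it had 1474 and 1447 in Scr13 and 1601 and 1400 in Scr16 without treatment and 1799 and 1747 in Scr13 and 1838 and 1696 in Scr16 after doxorubicin, without overlap. In the libraries labelled TRPM2 KO it had 1547 and 1545 in KO11 and 1608 and 1379 in KO28, and 1696 and 1838 in KO11 and 1676 and 1765 in KO28 after doxorubicin, also without overlap. The log2 fold change was 0.26 (SE 0.068, adjusted p = 0.0174) in Scr, and 0.20 (SE 0.079, adjusted p = 0.077) in the libraries labelled TRPM2 KO, which did not pass in limma and passed in DESeq2 (log2 fold change 0.18, adjusted p = 0.0173). The call in Scr was lost without Scr13 untreated replicate 2 (adjusted p = 0.0629), Scr16 untreated replicate 2 (0.0720) or Scr16 doxorubicin replicate 1 (0.0722), and in Scr13 alone (0.185) and Scr16 alone (0.316). STMN4 had log2 fold changes of -0.22 (SE 0.086, adjusted p = 0.104) and -0.24 (SE 0.10, adjusted p = 0.0833), and passed in the libraries labelled TRPM2 KO without KO28 untreated replicate 2 (adjusted p = 0.0174) or KO28 doxorubicin replicate 2 (0.0447), and with scaling by library size alone (0.0483). MAP1B had -0.061 (SE 0.075, adjusted p = 0.663) and 0.053 (SE 0.091, adjusted p = 0.746), and DCX -0.11 (SE 0.10, adjusted p = 0.533) and -0.18 (SE 0.082, adjusted p = 0.136). DCX passed without KO28 untreated replicate 2 (0.0240) or KO28 doxorubicin replicate 1 (0.0158), and in KO11 alone (log2 fold change -0.29, adjusted p = 0.0249, limma). TUBB3 fell in the libraries labelled TRPM2 KO, from 3.42 and 3.49 in KO11 and 3.42 and 5.25 in KO28 to 2.18 and 2.33 in KO11 and 2.29 and 0.957 in KO28 (normalized CPM), with a log2 fold change of -0.75 (SE 0.26, adjusted p = 0.0434). KO28 replicate 2 was the highest of the untreated and the lowest of the treated libraries of that genotype, and without the first or the second of these the adjusted p was 0.129 or 0.177. The call was also lost without each other library of the fit except KO28 doxorubicin replicate 1, with an adjusted p between 0.0558 and 0.0760, in KO11 alone (0.308; in KO28 alone it was under the filter on low values), and with edgeR (0.0841) and DESeq2 (0.0677).

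**Figure D4:**
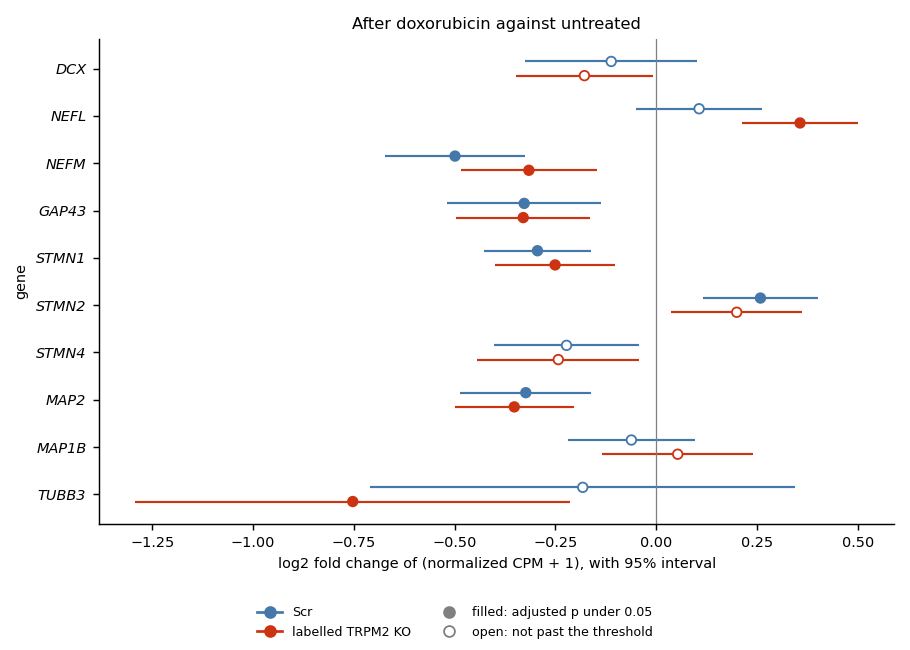
Log2 fold change of (normalized CPM + 1) between doxorubicin and untreated libraries (x axis) for the 10 genes (y axis), within Scr and within the libraries labelled TRPM2 KO, with 95% intervals from limma. STMN1, MAP2, NEFM and GAP43 are filled and left of 0 in both genotypes, and TUBB3 has the widest interval.

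NEFL and NEFM parted with doxorubicin, although they were both lower in the libraries labelled TRPM2 KO. NEFM fell by 0.50 in Scr (adjusted p = 0.000473) and by 0.32 in the libraries labelled TRPM2 KO (adjusted p = 0.00694) on the log2 scale. NEFL had a log2 fold change of 0.11 (SE 0.075, adjusted p = 0.399) in Scr and rose in the libraries labelled TRPM2 KO, with 0.36 (SE 0.07, adjusted p = 0.000542), all from limma. In single clones the NEFM call was lost in Scr16 (log2 fold change -0.38, adjusted p = 0.132), KO11 (-0.29, adjusted p = 0.06) and KO28 (-0.34, adjusted p = 0.119). The ratio of NEFL to NEFM within a library, per kb of merged exons and chosen after the values were seen, was 1.81 and 2.04 in Scr13, 2.18 and 1.65 in Scr16, 2.09 and 1.89 in KO11, and 1.89 and 1.91 in KO28 without treatment. After doxorubicin it was 3.44 and 3.33 in Scr13, 2.82 and 2.23 in Scr16, 3.10 and 3.14 in KO11, and 2.97 and 3.22 in KO28. All 8 treated libraries were thus above all 8 untreated ones. The mean ratio moved from 1.92 ± 0.238 to 2.96 ± 0.553 in Scr and from 1.94 ± 0.0951 to 3.11 ± 0.105 in the libraries labelled TRPM2 KO (SD, n = 4). A ratio within a library does not depend on the scaling of that library, but it shows unequal change of the 2 genes and not which of them changed. How many reads the antisense genes take from either chain was not tested. NEFH, the heavy chain, rose in the libraries labelled TRPM2 KO (log2 fold change 0.35, adjusted p = 0.0386) and did not pass in Scr (0.037, adjusted p = 0.839).

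**Figure D5:**
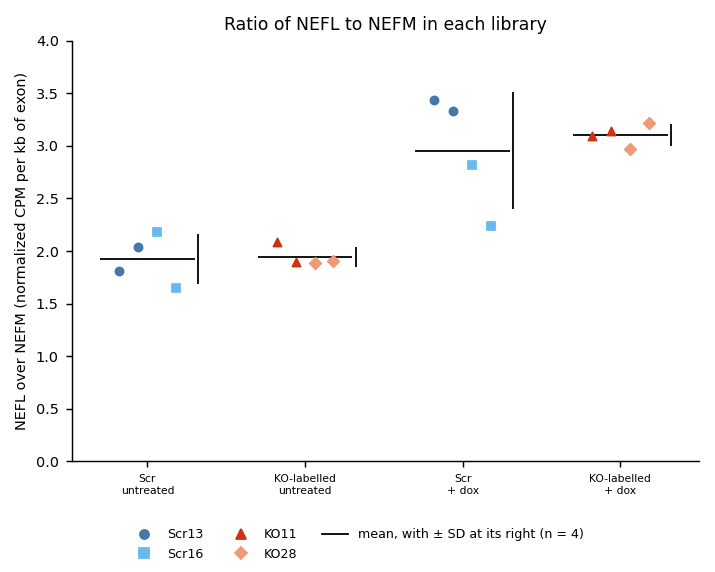
Ratio of NEFL to NEFM (y axis, normalized CPM per kb of merged exons, linear, from 0) in each library by group, with clones as symbols, the mean as a line and ± SD at its right (n = 4). All 8 doxorubicin libraries lie between 2.23 and 3.44, above the untreated libraries at 1.65 to 2.18.

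Whether the response to doxorubicin differed between the genotypes was tested as an interaction over the 16 libraries with the clone as a term. Of the 10 members 0 passed limma's threshold, 1 had an unadjusted p under 0.05, and 0 passed with edgeR or DESeq2. Of all genes tested 0.0261% were called and 8.31% had an unadjusted p under 0.05. The member with the unadjusted p under 0.05 was NEFL, with an interaction of 0.25 (SE 0.10, adjusted p = 0.504) on the log2 scale (95% interval 0.041 to 0.46). For TUBB3, which fell past the threshold in 1 genotype and not the other, the interaction was -0.57 (SE 0.36, adjusted p = 0.72) with a 95% interval of -1.30 to 0.16, and for STMN2 it was -0.059 (SE 0.10, adjusted p = 0.932) with a 95% interval of -0.27 to 0.15, so a difference in response was not shown for either.

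In the other cytoskeletal lists, bracketed values are again log2 fold changes with limma's adjusted p, for Scr and then for the libraries labelled TRPM2 KO. Of 12 growth cone and neurite proteins, 2 were higher and 2 lower in Scr, and 3 were higher and 5 lower in the libraries labelled TRPM2 KO. Of genes chosen after their values were seen, CNTN2, an axonal adhesion protein, rose in both genotypes (log2 fold change 0.88, adjusted p = 1.85e-06 and 1.25, adjusted p = 1.09e-10), and MARCKS, an actin-binding membrane protein often grouped with GAP43, fell in both (-0.44, adjusted p = 0.000212 and -0.54, adjusted p = 1.28e-06), as did MARCKSL1 (-0.31, adjusted p = 0.00581 and -0.38, adjusted p = 0.000376). TUBB6 rose in both (0.81, adjusted p = 0.000782 and 0.84, adjusted p = 3.41e-06). Of 10 tested tubulins, 2 were higher and 0 lower in Scr, and 1 higher and 1 lower in the libraries labelled TRPM2 KO. Of 9 kinases of cytoskeletal proteins, 1 was higher and 1 lower in Scr, and 1 higher and 3 lower in the libraries labelled TRPM2 KO. MARK4, which phosphorylates microtubule-associated proteins, rose in both (0.61, adjusted p = 3.59e-05 and 0.54, adjusted p = 2.41e-05), and CDK5, a kinase of neurofilaments and tau, fell in both (-0.33, adjusted p = 0.0305 and -0.42, adjusted p = 0.00224). Without Scr13 untreated replicate 1 the CDK5 call in Scr was lost (adjusted p = 0.131), and DPYSL3 was called higher in Scr (log2 fold change 0.52, adjusted p = 0.0214). Its activator CDK5R1 fell in the libraries labelled TRPM2 KO (-0.40, adjusted p = 0.00171) and did not pass in Scr (-0.24, adjusted p = 0.111). The other microtubule regulators numbered 2 higher and 1 lower of 14 in Scr and 1 higher and 2 lower in the libraries labelled TRPM2 KO, the microtubule-associated proteins 1 higher and 1 lower of 11 and 1 higher and 0 lower, the intermediate filaments 0 of 5 and 1 higher and 1 lower of 4 tested, the axonal motors 0 of 10 and 1 higher, the spectrins and ankyrins 0 of 5 and 2 lower, and the neuronal RNA-binding proteins with REST 2 higher of 5 and 1 higher. REST, the repressor of neuronal genes, did not pass in any of these comparisons and had 42.9 ± 5.29 normalized CPM in untreated Scr (SD, n = 4) and 39.3 ± 2.86 in treated libraries labelled TRPM2 KO.

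Markers of the p53 response and of proliferation moved with doxorubicin beside these genes. The 8 p53 response genes summed to between 337 and 423 normalized CPM in untreated Scr and 937 and 1168 in treated Scr, and to between 537 and 557 and between 1861 and 2136 in the libraries labelled TRPM2 KO. CDKN1A was the most abundant in every treated library. Of 8 tested genes, 7 were higher in Scr and 8 in the libraries labelled TRPM2 KO, and between the genotypes 3 of 7 were higher without treatment and 8 of 8 after doxorubicin. FAS, counted as higher with doxorubicin in both genotypes, was under the filter between the untreated groups. It may have passed the filter here through the treated libraries, so its doxorubicin calls are a description and not a test. The doxorubicin counts of the lists were not screened for such genes. The 10 proliferation genes, with MKI67 or TOP2A most abundant, summed to between 2938 and 3345 in untreated Scr, 2727 and 3148 in treated Scr, 2910 and 3161 in untreated libraries labelled TRPM2 KO and 2310.5 and 2549.8 in treated ones. Of these, 3 were lower with doxorubicin in Scr and 7 in the libraries labelled TRPM2 KO, with 0 higher, and between the genotypes 1 was lower without treatment and 5 after doxorubicin. The part of these responses in the changes of the cytoskeletal genes was not tested.

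Over the 16 libraries, which share 4 clones and 2 treatments, the members did not move as 1 block. As a description without a test, Pearson's r of log2(normalized CPM + 1) was highest between NEFM and GAP43 (0.869) and between STMN1 and MAP2 (0.805), and lowest between DCX and NEFL (-0.819). NEFL and NEFM, which lie side by side, had an r of 0.29. Of the 15324 other genes that passed the filter on low values, those most like DCX were AASS (Pearson's r 0.96) and SERTM2 (0.94), the second of which is its neighbour on the X chromosome. SERTM2 passed that filter through the libraries labelled TRPM2 KO alone, so its r with DCX follows in part from that selection. Those most like NEFL were XPR1 (Pearson's r 0.95) and TAGLN2 (0.93), like NEFM CLMP (Pearson's r 0.95) and MCC (0.94), like GAP43 MCC (Pearson's r 0.91) and FRZB (0.90), and like STMN1 HMGB1 (Pearson's r 0.95) and IPO5 (0.95). Those most like MAP2 were IDE (Pearson's r 0.94) and TOP2B (0.93), like MAP1B AFAP1 (Pearson's r 0.92) and ASXL3 (0.90), like STMN2 BNIP3L (Pearson's r 0.94) and EIF1B (0.92), like STMN4 DCPS (Pearson's r 0.86) and CBLN1 (0.85), and like TUBB3 SRSF4 (Pearson's r 0.87) and DDN (0.87). MCC was near the top for both NEFM and GAP43.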

How the data were processed

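RNA-seq of poly(A) RNA was deposited as 2 tables of normalized CPM per Ensembl gene, 1 for untreated and 1 for doxorubicin-treated libraries. The submitters' processing notes name bcl2fastq, HISAT2 2.1.0, HTSeq and edgeR with GRCh38. The annotation, strand setting and overlap mode of the counting are not given in the sources used here. The deposited signal is thus the read count per gene divided by the library's reads on genes and an edgeR scaling factor, by the authors. Whole reads were recovered from it (100% of values within 0.01 of a whole multiple), with 10481177 to 25086085 reads per library (median 16037366.5) and factors of 0.974 to 1.03. Both tables are on 1 scale. Columns with the authors' own fold changes, p-values, q-values and ranks were not used.

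Groups came from the sample labels. Values were tested with limma 3.58.1 (R 4.3.3, trended empirical Bayes) on log2(normalized CPM + 1), on genes that reached 1 normalized CPM in 4 or more libraries of the fit, with Benjamini-Hochberg adjustment over all genes tested and a threshold of 0.05. Such fold changes understate the change of low genes. The doxorubicin and interaction fits had the clone as a term. Exact permutation tests were 2-sided over 4 libraries against 4. Alternatives were edgeR 4.0.16 and DESeq2 1.42.0 on recovered reads, other pseudocounts, filters and scalings, single clones, reads summed per clone, a replicate block and leaving out each library. The scripts were tested on simulated data. Positions are from GENCODE 29 (names for 95.0% and positions for 95.9% of the identifiers), and promoters from RefSeq. The 84 other cytoskeletal genes and the marker lists were set by function, and the genes named from a cytoskeletal list are the 3 with the largest absolute log2 fold change among those past the threshold between the genotypes. The others named from these lists (TUBB, NES, INA, MAP6, MAP1A and all genes named only for doxorubicin) and the genes near a member were chosen after their values were seen. All 10 members and the 2 genes most like each are named. The 10 members and all lists were chosen with earlier results of these data known. The Schwann cell and glia list is not reported here.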

Additional observations from a re-analysis of the deposited data

Results flagged for a closer look

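Among 40 sets of 4 libraries (10 genes in 4 groups), 3 held a library whose gap to its nearest neighbour was, relative to the set's whole range, over Dixon's 95% critical value for 4 values. Chance gives this in about 1 of 20 sets, so 2 would be usual among 40. TUBB3 was 5.25 normalized CPM in untreated KO28 replicate 2, while the other 3 libraries of that group lay between 3.42 and 3.49. TUBB3 was also 0.957 normalized CPM in doxorubicin-treated KO28 replicate 2, while the others lay between 2.18 and 2.33. These values rest on few reads, since TUBB3 had 16 to 84 reads in a library. GAP43 was 163 normalized CPM in untreated Scr13 replicate 1, while the other Scr libraries lay between 138 and 141. The same library had the highest sum of fibroblast markers among untreated Scr libraries (253 normalized CPM), and the part of this in its GAP43 level was not tested.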

How the results depend on the processing

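The labelled replicate numbers did not pair the samples. Correlations of same-numbered libraries' deviations ran from -0.1 to 0.0845 over 6 pairs of untreated clones, from -0.000121 to 0.12 over 6 treated pairs and from -0.025 to 0.0865 over the 4 clones between treatments. With the replicate block, 25 genes were called for the interaction in place of 4, and MAP1B passed after doxorubicin (adjusted p = 0.0495, limma). Of 1389 values of single members under an alternative, 1259 kept direction and call, 62 lost the call, 12 gained one and 56 changed sign. The 56 belong to 20 results with a log2 fold change of at most 0.11 in size, and 0 of them were called either way (limma, edgeR or DESeq2, smallest adjusted p = 0.505). For KO against Scr without treatment, STMN4 was 0.033 without clone Scr13, TUBB3 -0.0090 and MAP2 0.063 without KO28. After doxorubicin, STMN4 was 0.00050 without clone KO11 and 0.15 without Scr13. With doxorubicin, MAP1B was -0.027 in KO11 alone, and MAP2 between Scr16 and Scr13 was 0.00074 by edgeR and 0.0020 by DESeq2. The other sign changes came from leaving out 1 library, with these ranges of log2 fold change. For KO against Scr they were -0.11 to 0.025 (MAP2), -0.096 to 0.023 (STMN4) and -0.013 to 0.23 (TUBB3) without treatment, and -0.14 to 0.020 (STMN4) after doxorubicin. For doxorubicin, MAP1B ran from -0.12 to 0.00061 in Scr and from -0.046 to 0.12 in libraries labelled TRPM2 KO. For the interaction they were -0.15 to 0.042 (DCX), -0.087 to 0.076 (GAP43), -0.091 to 0.047 (MAP2) and -0.10 to 0.041 (STMN4). For KO28 against KO11 they were -0.16 to 0.0068 (MAP1B), -0.051 to 0.012 (NEFL), -0.027 to 0.057 (NEFM), -0.089 to 0.00016 (STMN2), -0.0031 to 0.14 (STMN4) and -0.22 to 0.15 (TUBB3), and for Scr16 against Scr13 -0.077 to 0.062 (MAP2), -0.035 to 0.015 (STMN1), -0.028 to 0.049 (STMN2) and -0.096 to 0.16 (TUBB3).

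Counts of called genes, and of members among them, moved as follows. The cause was not tested, beyond the fewer libraries in fits that leave some out. With no filter on low values, 368 genes were called between genotypes without treatment, 831 with doxorubicin in Scr, 2 for the interaction and 0 in each clone comparison, with 2 members after doxorubicin, where 3.36% of all genes were called, and 2 with doxorubicin in Scr (3.27%). The members that lost a call with no filter were GAP43 without treatment (adjusted p = 0.131), GAP43 (0.0809) and NEFL (0.0504) after doxorubicin, STMN2 (0.132), GAP43 (0.133) and MAP2 (0.0894) with doxorubicin in Scr, and TUBB3 (0.169) and STMN1 (0.0725) in libraries labelled TRPM2 KO, all from limma. Without treatment, 330 genes were called without clone Scr13 and 327 without Scr16. After doxorubicin, 510 genes (3.63%) and 1 member were called without clone KO11, 575 (4.09%) and 1 without KO28, and 1070 (7.54%) and 2 without Scr16. With doxorubicin, Scr13 alone gave 781 genes (5.88%) and 3 members, Scr16 alone 237 (1.83%) and 0, KO11 alone 2130 (16%) and 3, and KO28 alone 995 (7.58%) and 2 of the 9 members tested. For the interaction edgeR called 10 genes and DESeq2 58, for KO28 against KO11 10 and 33, and for Scr16 against Scr13 edgeR called 2. Leaving out 1 library at a time gave 508 to 678 genes and 3 to 4 members between genotypes without treatment, 814 to 1314 and 2 to 5 after doxorubicin, 1100 to 1739 and 3 to 5 with doxorubicin in Scr, 2049 to 2903 and 4 to 7 in libraries labelled TRPM2 KO, 1 to 19 genes for the interaction, 3 to 91 and 0 to 1 for KO28 against KO11, and 1 to 32 for Scr16 against Scr13. The ratio of NEFL to NEFM rose with doxorubicin by 1.46 to 1.66 times in Scr and 1.58 to 1.64 times in libraries labelled TRPM2 KO under the same omissions. In the list genes, leaving out Scr13 untreated replicate 1, chosen after seeing the data, lost the calls of MAP6 and GATA3 without treatment and of CDK5, ISL1 and TWIST1 with doxorubicin in Scr, and gained CD44 and MDM2 in the first and DPYSL2, DPYSL3, MAPK10, CHGB, CD44 and NOTCH2 in the second. It also turned the sign of genes called neither way (limma), to log2 fold changes of -0.023 (TUBB4B), -0.029 (TUBG1), -0.0015 (KIF3C), 0.035 (REST), -0.034 (PCNA), -0.0093 (CCNB1) and -0.0075 (TP53I3) in the first and 0.034 (MAPRE2), 0.34 (VIM), 0.39 (YAP1), 0.050 (COL1A1) and 0.29 (COL3A1) in the second. Depth limits TUBB3 most, at 16 to 84 reads.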
